A study of Gallus gallus with 12 samples.

Results

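Muscle fibres relax when calcium is pumped from the cytosol back into the sarcoplasmic reticulum and contract when it is released through ryanodine receptors. Inside the reticulum calsequestrin holds the stored calcium, and triadin ties it to the release channel. When the store runs low, STIM1 senses the loss in the reticulum membrane and opens ORAI1, a calcium channel of the surface membrane. Fast and slow fibres use different genes for some of these steps. In mammals ATP2A1 is the pump of fast fibres and ATP2A2 that of slow fibres and heart.

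The set described here lists 10 genes of this machinery, chosen by gene symbol, with the row of the highest mean level standing for a gene that has several rows. Of the 10 genes, 7 carried a row with a single symbol in the platform annotation: ATP2A2, CASQ2, TRDN, RYR3, PVALB, STIM1 and ORAI1. The other 3, ATP2A1, CASQ1 and PLN, had no such row and were not analysed here, and neither was RYR1. The fast and slow partners of the pump and of calsequestrin could therefore not be set against each other. The value table held 20804 rows (transcript clusters), with 11528 different gene symbols.

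The samples were breast fillets (Pectoralis major) of 12 Ross 708 broilers, chickens bred for rapid growth, labelled male and kept in 1 flock up to a mean weight of 3.7 kg. Slaughterhouse inspection had graded 6 fillets as affected, with white striping / wooden breast myopathy (pale stripes and a stiff, hard muscle), and 6 as normal. Each bird gave 1 array, so n = 6 in each group and the replicates are separate birds.

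Arrays resembled each other closely, with correlations between 0.941 and 0.987 over all rows and array medians between 4.05 and 4.16 on the log2 scale. Of 9 fast fibre markers TNNC2, TNNI2, TNNT3, MYOZ1 and MYH1E never read under 10.86, while MYH1C, AMPD1, MYH1G and MYH1D went down to 8.71, 7.42, 6.37 and 4.91. Of 9 slow and cardiac fibre markers TNNC1 never read under 9.90 and ACTC1 averaged 10.04 in affected and 9.11 in normal muscle, while MYH7, MYL3 and MYL2 reached at most 4.96, 4.61 and 4.03. Of the 12 arrays 3, those of normal birds 1, 4 and 5, carried transcripts of the W chromosome, which only female birds have. HINTW, a W-linked gene, lay between 8.51 and 9.41 on these 3 arrays and between 2.46 and 2.99 on the other 9. The members' differences are therefore given with and without them. ATP5F1AW, another W-linked gene, read between 3.36 and 4.30 on the 9 arrays without W transcripts. The 2 W-linked rows thus differ in how high they read where their gene should be absent. The higher one is used below as a cautious guide, although levels of different rows cannot strictly be compared. Its top, 4.30, lies above every array median, so a reading under it does not show that a gene is absent.

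None of the 7 genes passed the test for a difference between affected and normal muscle. The test was limma's moderated fit over all rows with Benjamini-Hochberg adjustment and a threshold of 0.05, which called 1.14% of all rows. The same held without the 3 arrays with W transcripts, where 0.0144% of all rows were called. At an unadjusted p under 0.05 limma picked 3 of the 7, ATP2A2 with a positive difference and STIM1 and ORAI1 with negative ones, where 22.1% of all rows did. Without the W arrays these 3 and RYR3 were picked, 4 of 7 against 17.7% of all rows. By the exact two-sided permutation test at the same unadjusted level TRDN joined them, making 4 of 7 against 21.7% of all rows. In no gene were the 2 groups of birds fully apart, as they were in 2.17% of all rows. The median difference, affected minus normal, was -0.13 over the 7 genes and -0.03 over all rows. The members were chosen with earlier results of these data known, so their counts beside all rows are a description only.

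**Figure D1:**
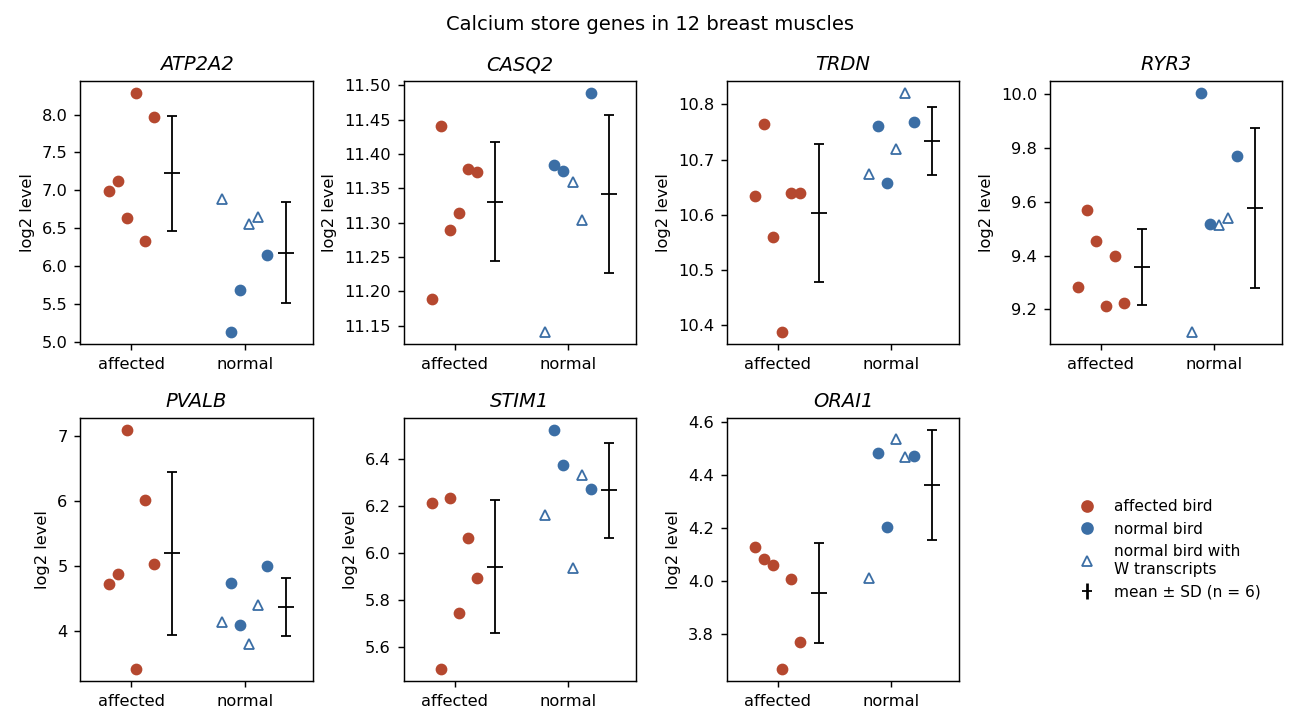
Log2 level of the 7 calcium store genes, 1 panel a gene, with a point for each bird, affected on the left and normal on the right, and the mean ± SD (n = 6) beside each group. Open triangles are the 3 normal birds with W transcripts; in the ATP2A2 panel they lie above the other 3 normal birds, and axes differ between panels and do not start at 0.

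ATP2A2 encodes the reticulum pump of slow fibres and heart, and a splice form of the same gene serves most other cell types; its single row cannot tell these forms apart. The log2 level ran from 6.33 to 8.29 with a median of 7.06 in affected muscle, against 5.12 to 6.88 with a median of 6.35 in normal muscle. Affected birds 4 and 6 were highest, at 8.29 and 7.97, and 4 of the 6 affected birds lay above every normal bird. The difference was 1.05 ± 0.36 (log2, SE), a 2.07-fold higher level with a 95% interval of 1.21 to 3.55. It did not pass over all rows (limma, adjusted p = 0.122; exact permutation p = 0.0325).

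The normal birds split by their W transcripts in this gene, and in the other direction in CASQ2. The share of all rows with such a split was not computed, so both splits only describe these birds. In ATP2A2 the 3 with W transcripts read 6.56 to 6.88 and the 3 without read 5.12 to 6.15. The affected birds, from 6.33 upward, thus overlapped only with the normal birds that had W transcripts. Without the 3 arrays the groups were fully apart and the difference was 1.57 ± 0.41 (limma, adjusted p = 0.13), with an exact permutation p of 0.0357 where the smallest possible with 3 normal and 6 affected birds is 0.0119. In that comparison 3 of the 7 genes, ATP2A2, STIM1 and ORAI1, had groups fully apart, as had 8.7% of all rows. Without normal bird 2 and affected bird 4, the lowest and the highest bird, the difference was 0.63 (limma, adjusted p = 0.308).

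Affected birds 4 and 6, highest in ATP2A2, were also highest in the summed markers of fibroblasts, leukocytes and slow and cardiac fibres. In the smooth muscle, endothelial, adipocyte and erythrocyte sums affected bird 6 did not stand out. The summed level of fibroblast and matrix genes (6 of 8 listed markers measured, COL1A1, COL1A2, LUM, PDGFRA, FN1 and POSTN) ran from 11.76 to 13.40 in affected and from 9.95 to 12.05 in normal muscle on the log2 scale. Its highest values were 13.40 and 13.03, in affected birds 4 and 6, and its lowest was in normal bird 2, the bird with the lowest ATP2A2. All 6 of these markers had positive differences, 0.93 to 1.77, none past the test.

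Slow and cardiac fibre markers (9 of 12 measured) had summed levels of 11.41 to 12.995 in affected and 11.43 to 12.31 in normal muscle. The highest sums were in affected birds 4 and 6, at 12.995 and 12.44, with affected birds 2 and 1 close to the latter at 12.43 and 12.41. The lowest were in affected bird 3 and normal bird 2, at 11.41 and 11.43. Of these 9 markers 6 had positive and 3 negative differences, the latter TNNC1, MYL2 and MYH7 at -0.33, -0.18 and -0.10. MB, the oxygen store of red fibres, and CSRP3, a Z-disc stress protein, passed with all birds, with differences of 2.37 and 3.30 (limma, adjusted p = 0.0169 and 0.0175). Of the 9 fast fibre markers MYH1G, a fast myosin heavy chain gene, and AMPD1, the muscle AMP deaminase, passed with differences of 2.30 and -1.005 (limma, adjusted p = 0.0379 and 0.0316). None of these 4 passed without the W arrays, where the differences of MB, CSRP3, MYH1G and AMPD1 were 2.67, 3.79, 2.27 and -1.16 (limma, adjusted p = 0.071, 0.0749, 0.13 and 0.0822). The marker lists were chosen with earlier results of these data known, so these 4 calls are given as a description only. Leukocyte markers (6 of 8 measured) summed to 9.75 to 10.85 in affected and 8.39 to 10.22 in normal muscle. Affected birds 4 and 6 were highest in this sum and normal bird 2 lowest. Smooth muscle and pericyte markers (5 of 8 measured) summed to 7.73 to 8.16 in affected and 7.45 to 7.79 in normal muscle. Endothelial markers (5 of 7 measured) summed to 8.64 to 8.90 in affected and 8.63 to 9.25 in normal muscle. Adipocyte markers (4 of 6 measured) summed to 8.09 to 8.76 in affected and 7.87 to 8.42 in normal muscle. For erythrocyte markers (2 of 6 measured) the ranges were 6.68 to 8.39 and 6.29 to 7.16. Affected bird 4 was highest in the smooth muscle, adipocyte and erythrocyte sums. Affected bird 6 read 7.80, 8.19 and 6.76 in them, below several other affected birds. The part of any of these cells in the ATP2A2 difference was not tested. In bulk muscle more cells of a type and more RNA per cell cannot be told apart.

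**Figure D2:**
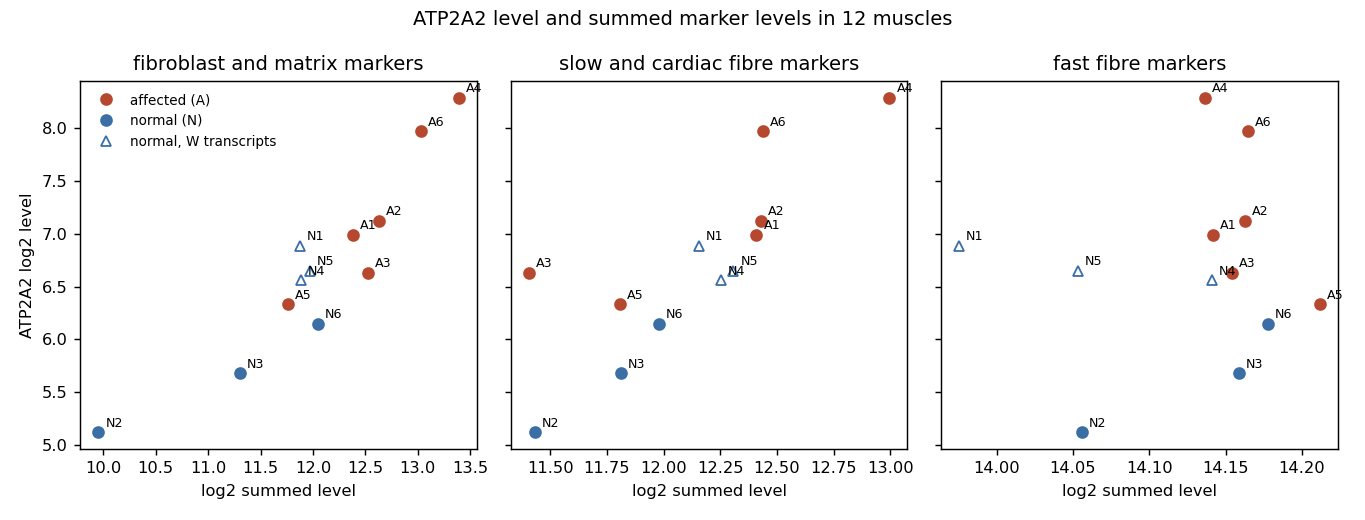
ATP2A2 log2 level (vertical) against the log2 summed level of fibroblast and matrix, slow and cardiac fibre, and fast fibre markers (horizontal) in 12 birds, labelled A for affected and N for normal with the bird's number; open triangles are normal birds with W transcripts. Affected birds 4 and 6 are highest in ATP2A2, in the fibroblast sum and in the slow and cardiac fibre sum. Normal bird 2 is lowest in ATP2A2 and in the fibroblast sum. The fast fibre sums span 13.98 to 14.21, and in every sum the brightest markers weigh most.

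Apart from the group difference, the genes whose bird-to-bird pattern was most like that of ATP2A2 were ACTN1, a non-muscle alpha-actinin, PIK3CD, a phosphoinositide kinase subunit best known from leukocytes, and FHOD3, a formin that builds sarcomeric actin. Likeness was Pearson's r of deviations from the group mean over 12 birds, and it was 0.965, 0.964 and 0.960 for the 3 genes, given as a description of these birds. Their own differences were 0.64, 0.49 and 0.47, none past the test.

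For the luminal store proteins the differences were small. CASQ2, a calsequestrin named for the heart in mammals, read 11.19 to 11.44 (median 11.34) in affected and 11.14 to 11.49 (median 11.37) in normal muscle, and the affected range lay within the normal one. The difference was -0.01 ± 0.07, with a 95% interval of 0.889 to 1.11 as a fold, so a change of 2-fold lies far outside it (limma, adjusted p = 0.947). Without the W arrays it was -0.08 ± 0.08 (limma, adjusted p = 0.627). Its sign was positive under quantile normalization and under median centring. Normal birds with W transcripts read 11.14 to 11.36 in CASQ2, below those without, at 11.37 to 11.49.

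TRDN, the triadin that anchors calsequestrin to the release channel, read 10.39 to 10.76 (median 10.64) in affected and 10.66 to 10.82 (median 10.74) in normal muscle. In 5 of 6 affected birds it lay below every normal bird, with affected bird 4 lowest at 10.39 and affected bird 2 inside the normal range. The difference was small, -0.13 ± 0.07, or 0.914-fold (limma, adjusted p = 0.307; exact permutation p = 0.0303), and without the W arrays -0.13 ± 0.10 (limma, adjusted p = 0.516; exact permutation p = 0.155).

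RYR3 is a release channel that birds use beside RYR1 in fast muscle. It read 9.21 to 9.57 (median 9.34) in affected and 9.12 to 10.01 (median 9.53) in normal muscle. The difference was -0.22 ± 0.13, or 0.859-fold (limma, adjusted p = 0.324). The lowest bird of all was normal bird 1, at 9.12, 1 of the 3 with W transcripts. Without those arrays the difference was -0.41 ± 0.12 (limma, adjusted p = 0.158), and the remaining normal birds, at 9.52 to 10.01, met the affected range only at affected bird 2. Leaving out normal bird 2 alone gave -0.13.

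PVALB, a soluble protein that binds calcium in the cytosol and speeds relaxation in fast fibres of mammals and fish, had the largest SD of the 7 genes in affected birds. It read 3.41 to 7.09 (median 4.95) in affected and 3.799 to 5.001 (median 4.27) in normal muscle. Affected birds 3 and 5 stood high at 7.09 and 6.01, while affected bird 4, the bird with the most ATP2A2, was lowest of all 12. The SD was 1.25 in affected and 0.444 in normal birds, where ATP2A2 had a larger one, 0.668. Affected bird 4 and normal birds 1, 3 and 4 read at or under 4.30, the top of the ATP5F1AW readings where that gene should be absent. The difference of 0.83 ± 0.47 did not pass (limma, adjusted p = 0.313), and it was 0.45 without affected bird 3 and 0.58 ± 0.63 without the W arrays (limma, adjusted p = 0.66).

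**Figure D3:**
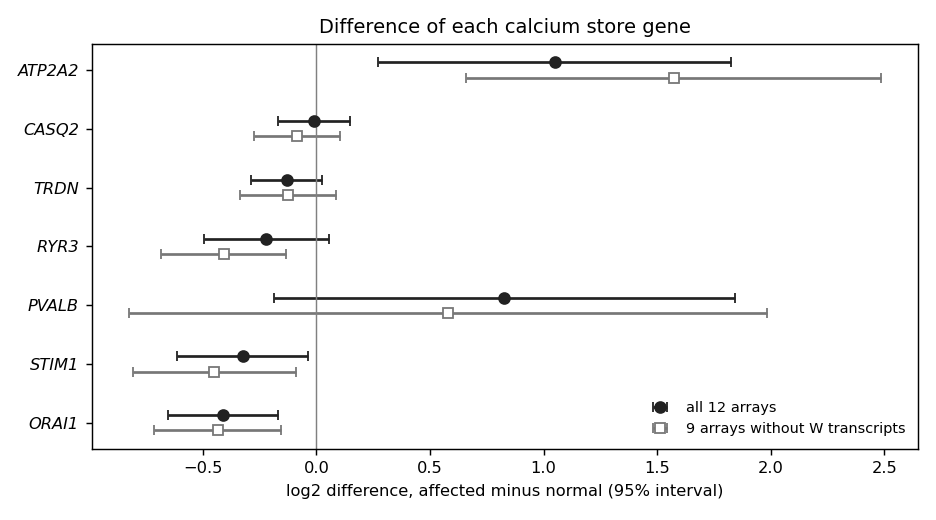
Log2 difference, affected minus normal, of each of the 7 genes with its 95% interval from limma; filled circles use all 12 arrays and open squares the 9 arrays without W transcripts. ATP2A2 and PVALB have the widest intervals and CASQ2 and TRDN the narrowest, and the ATP2A2 difference is 1.05 with all arrays and 1.57 with the 9.

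Of the store-operated entry genes in the set, ORAI1 and the brighter of 2 rows of STIM1 had negative differences. ORAI1, the entry channel, read 3.67 to 4.13 (median 4.04) in affected muscle and 4.01 to 4.54 (median 4.47) in normal muscle. All normal birds except bird 1 lay above every affected bird. All 6 affected readings and those of normal birds 1 and 3, at 4.01 and 4.20, fall within the 3.36 to 4.30 seen for ATP5F1AW where that gene should be absent, so no fold is given. They lie above the 2.46 to 2.99 of HINTW on the same arrays without W transcripts. The difference in reading was -0.41 ± 0.11 (limma, adjusted p = 0.0757), and without the W arrays -0.43 ± 0.13 (limma, adjusted p = 0.15).

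STIM1, the calcium sensor, had 2 rows. The brighter read 5.51 to 6.24 (median 5.98) in affected and 5.94 to 6.53 (median 6.30) in normal muscle, with affected birds 2 and 4 lowest. Its difference was -0.32 ± 0.13, or 0.798-fold (limma, adjusted p = 0.178; exact permutation p = 0.0476), and without the W arrays -0.45 ± 0.16 with the groups fully apart (limma, adjusted p = 0.203). The dimmer row gave 0.11 ± 0.15 (limma, adjusted p = 0.709) and the mean of both rows -0.11. With all arrays the rows of this gene thus did not give the same direction. Without the W arrays the dimmer row gave -0.17 (limma, adjusted p = 0.512). In affected birds alone the dimmer row averaged 5.97 and the brighter one 5.94.

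Each of these genes has a relative that was measured on the same arrays. STIM2 is a second store sensor and ORAI3 another channel subunit, and their differences were 0.20 ± 0.10 and 0.17 ± 0.11 (limma, adjusted p = 0.26 and 0.391). These pairs were chosen after the differences of ORAI1 and STIM1 were seen, because the pairs first intended had no rows, so they are described without a test.

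The log2 difference ORAI1 minus ORAI3 was -1.20 ± 0.31 (SD, n = 6) in affected birds and -0.63 ± 0.27 in normal birds. The change was -0.58, and -0.75 without the W arrays, with normal bird 1, at -1.10, the one normal bird inside the affected range. It rests on ORAI1 readings that, in all affected birds, were within the ATP5F1AW range of arrays without W transcripts. STIM1 minus STIM2 was 0.70 ± 0.36 in affected and 1.23 ± 0.34 in normal birds, a change of -0.52, and of -0.68 without the W arrays. In 4 of 6 affected birds it lay below every normal bird. With the 2 rows of STIM1 averaged the change was -0.31.

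**Figure D4:**
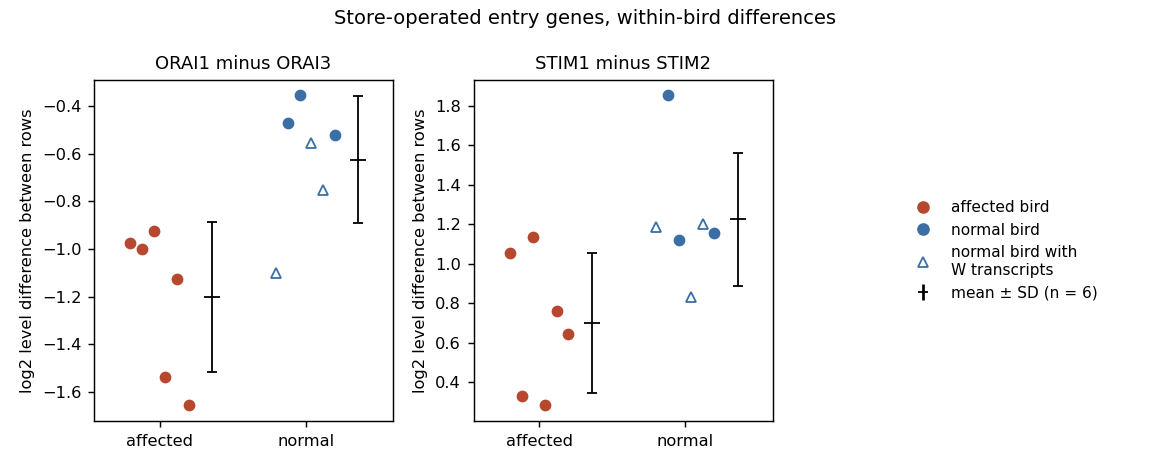
Within-bird log2 difference between the rows of ORAI1 and ORAI3 and between those of STIM1 and STIM2, affected birds on the left and normal birds on the right, with mean ± SD (n = 6); open triangles are normal birds with W transcripts. The ORAI pair averages -1.20 in affected and -0.63 in normal birds, and only the change between groups is read from these values, since levels of different rows cannot be compared.

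No bird-to-bird relation of ATP2A2 with another of the 7 genes passed correction, and relations among the other 6 were not computed. Deviations of ATP2A2 from its group mean were set against those of the other 6 genes over 12 birds, and all 6 correlations were negative. The relation with CASQ2 had r = -0.27 and rho = -0.20 (permutation p = 0.404 and 0.544; Benjamini-Hochberg over 6 relations 0.404 and 0.653), with r = -0.25 without the 2 birds farthest from the median of ATP2A2 (affected bird 4 and normal bird 2) and 0.18 without the W arrays. With all arrays the strongest was with RYR3, at r = -0.69 and rho = -0.71 (permutation p = 0.011 and 0.0182, adjusted 0.0658 and 0.0935). Without the same 2 birds its r was -0.56. Without the W arrays r was -0.56 for RYR3, and -0.70 for ORAI1 and -0.68 for PVALB were stronger. The relation with TRDN went from r = -0.33 to 0.08 without affected bird 4 and normal bird 2, while the others stayed negative.

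Around these members, 41 of 72 other calcium handling genes listed by role had a row, and none passed the test over all rows. The role lists were also chosen with earlier results known, so counts beside all rows are a description only. At an unadjusted p under 0.05 limma picked 11 of 41 (26.8%, against 22.1% of all rows), 8 with positive and 3 with negative differences. The median difference over the 41 was 0.01, against -0.03 over all rows. Without the W arrays none passed either, 12 of 41 were picked (29.3%, against 17.7% of all rows), and 14 differences were positive and 27 negative, with a median of -0.09. Readings of 5 of the 41, RYR2, ATP2B2, TRPC4, ITPR3 and CALB1, were at or under 4.30, the top of the ATP5F1AW range, on all 12 arrays. The sign of their differences, negative for all 5 with and without the W arrays, is therefore not read. The counts of signs and the medians given for the 41 genes still include them. ATP2B2 and ITPR3 nevertheless read above HINTW on arrays without W transcripts.

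Among 6 genes of the voltage sensor and junction, FKBP1A and FKBP1B encode small proteins that bind ryanodine receptors. FKBP1A had the smallest p of that list, with 7.82 to 8.23 (median 8.09) in affected and 8.20 to 8.62 (median 8.46) in normal muscle, and lay below every normal bird in 5 of 6 affected birds. Its difference was -0.39 ± 0.10 (limma, adjusted p = 0.0613), and -0.33 without the W arrays (limma, adjusted p = 0.197). FKBP1B, named after its values were seen, differed the other way, by 0.69 ± 0.24 (limma, adjusted p = 0.12), with 7.28 to 7.72 in affected and 5.75 to 7.36 in normal muscle. Without the W arrays the FKBP1B difference was 0.52 (limma, adjusted p = 0.203). CACNA1S, the voltage sensor of the surface membrane, had a difference of 0.01 with a 95% interval of -0.35 to 0.36. Without the W arrays it was -0.24 (limma, adjusted p = 0.432). RYR2, the cardiac release channel, read under 2.5 on every array, no higher than HINTW on arrays without W transcripts, and has no usable level here.

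Of 6 pump regulators and other pumps, SLN had the smallest p. SLN is sarcolipin, a small membrane protein that inhibits the reticulum pumps, as PLN does in the heart. It read 6.52 to 7.26 (median 6.99) in affected and 7.04 to 7.45 (median 7.39) in normal muscle, with affected bird 4 lowest. The difference was -0.36 ± 0.12 (limma, adjusted p = 0.108), opposite in sign to that of ATP2A2, and -0.32 without the W arrays (limma, adjusted p = 0.315).

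The 4 genes of the reticulum lumen and membrane had a median difference of 0.32, and without the W arrays 2 of the 4, TMEM38B and CLCN3, had negative differences (-0.30 and -0.03). CANX, the membrane chaperone calnexin, had 0.60 ± 0.17 in its brighter row and 0.61 ± 0.18 in its dimmer one (limma, adjusted p = 0.0805 and 0.0869). Of 8 genes of other store-operated and receptor-operated entry 6 had positive differences. The 2 with negative ones were TRPC4 and ITPR3, whose sign is not read. TRPC6, among the positive ones, read at or under 4.30 on 11 of 12 arrays, so the same limit applies to its sign. TRPC1, a cation channel, had the smallest p of the list, with a difference of 0.34 ± 0.12 (limma, adjusted p = 0.131).

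Of 8 genes of mitochondrial calcium uptake 4 had positive and 4 negative differences. MCUB, a subunit that damps the uniporter, differed by 0.77 ± 0.24 (limma, adjusted p = 0.1), while MCU, its pore, had a difference of -0.03 ± 0.08. MCUB averaged 3.94 in affected and 3.18 in normal muscle, the normal mean lying below every ATP5F1AW reading on arrays without W transcripts. Among 9 cytosolic sensors and calcium-dependent enzymes 7 had negative differences, CALB1, whose sign is not read, being among them. CALM2, a calmodulin gene, differed by -0.44 ± 0.14 (limma, adjusted p = 0.102), lying below every normal bird in 5 of 6 affected birds.

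**Figure D5:**
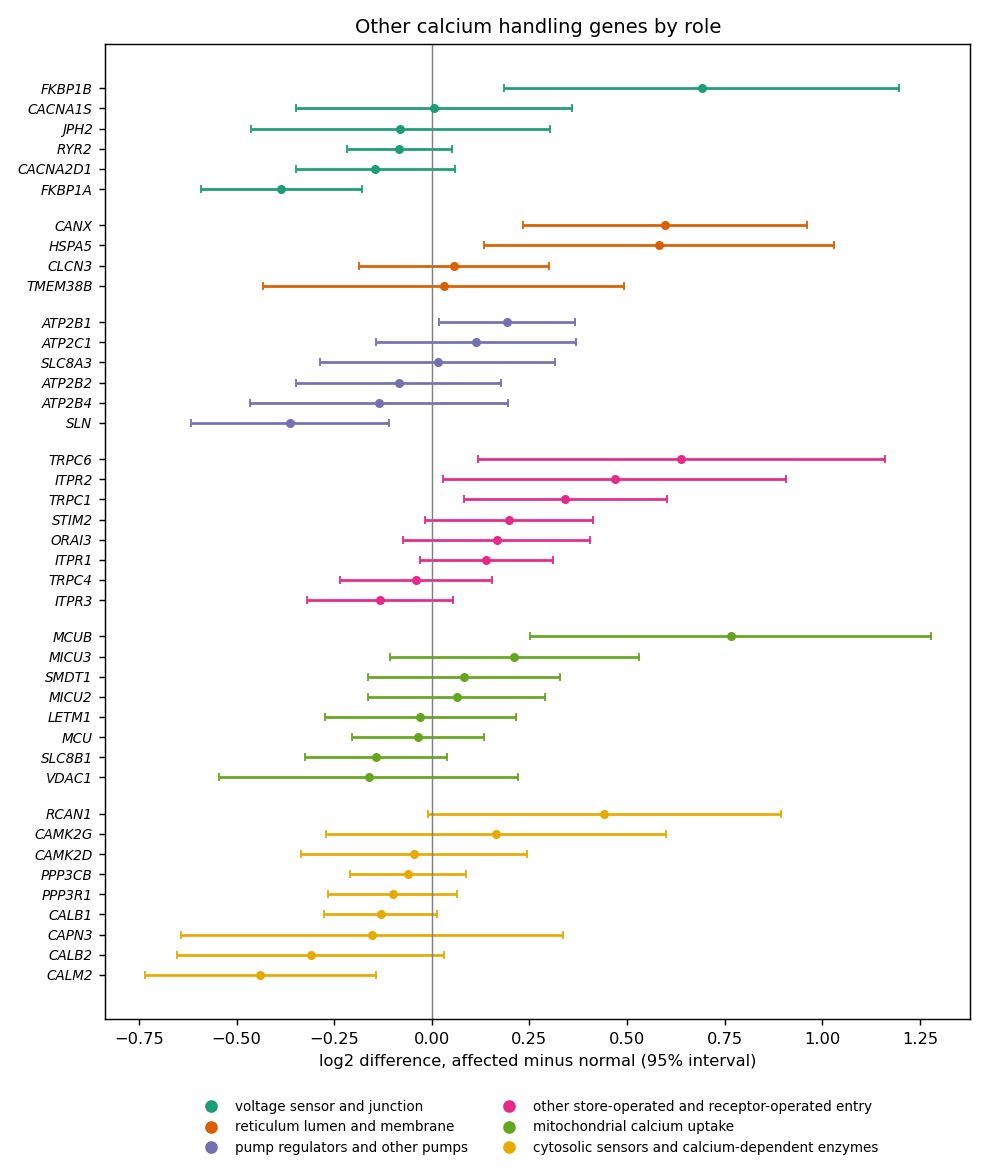
Log2 difference, affected minus normal, with its 95% interval from limma for 41 calcium handling genes outside the main set, grouped and coloured by role. Differences run from -0.44 for CALM2 to 0.77 for MCUB, with all 12 arrays. MCUB read at or under 4.30 on 10 of them.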

How the data were processed

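Per the labels' protocols, 150 ng of total RNA from each muscle was labelled with a whole-transcript kit (Affymetrix) for 1 array a bird. Partek appears in the submitters' processing notes. The sources used here do not give the background correction, the row summarization or the build. The deposited values were read as log2 levels per transcript cluster from their range of 1.04 to 12.9; log base and scaling are not stated.

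Rows were named from the platform annotation, with symbols brought up to date by Entrez ID (RefSeq gene table, GRCg7b) (12300 rows with 1 symbol, 256 with several, 8248 with none; 11727 matched). Groups came from the phenotype label. Fits used limma 3.58.1 in R 4.3.3 over all 20804 rows (prior degrees of freedom 3.39, residual 10) and were tested on simulated data. Exact permutations used all 924 arrangements, and correlations 100000 draws within groups. W transcripts meant HINTW above 6. Summed marker levels are log2 of summed linear values, so the brightest markers weigh most and changes of dimmer ones can be hidden. Members, role lists, markers and alternatives were chosen with earlier results of these data known. All measured members were named, the gene of smallest p in each role list, and the 3 nearest patterns to ATP2A2; nearest patterns used the brightest row of a gene. The 3 intended paralogue pairs and the relation of ATP2A2 with PLN were not run. Figures used matplotlib 3.10.9.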

Additional observations from a re-analysis of the deposited data

How the results depend on the processing

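No member passed limma's test under any alternative fit: quantile normalization, median centring, 2 filters on dim rows, a variance trend, robust moderation, array weights, named rows only, averaged rows, each bird left out, the W arrays left out, and normal bird 2 with affected bird 4 left out, the last added after the data were seen. The count was thus 0 throughout, and 4 by the unadjusted exact permutation test. ATP2A2, TRDN, RYR3, PVALB, STIM1 and ORAI1 kept their sign in all 23 alternatives each. Their differences were 0.63 to 1.57, -0.16 to -0.08, -0.41 to -0.11, 0.45 to 1.26, -0.45 to -0.11 and -0.48 to -0.33, with limma adjusted p from 0.0581 (ORAI1) upward. None of these alternatives used the dimmer row of STIM1 alone, whose difference of 0.11 with all arrays had the other sign. CASQ2 turned positive with quantile normalization (0.094), median centring (0.0085) and without normal bird 2 and affected bird 4 (0.00076), and spanned -0.051 to 0.019 over the fits lacking 1 bird; the cause was not tested. Of the other calcium handling genes 1, FKBP1A, passed with rows above the median only, where fewer rows were tested, and 0 to 1 passed when 1 bird was left out (FKBP1A without affected bird 1, CALM2 without affected bird 5). Over all rows 238 were called with all birds and between 1 and 588 in the other fits. The change in ORAI1 minus ORAI3 spanned -0.67 to -0.49 over those fits, and was -0.51 after quantile normalization and -0.75 without the W arrays. For STIM1 minus STIM2 the range was -0.61 to -0.40, and averaging rows gave -0.31. The r of ATP2A2 with CASQ2 spanned -0.37 to -0.05 over those fits and was 0.18 without the W arrays, the cause not being tested. No paired analysis was possible because replicate numbers follow the order of deposition. Low signal limits ORAI1, some readings of PVALB, and among the other genes RYR2, ATP2B2, TRPC4, ITPR3, CALB1, MCUB and TRPC6.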
